A study of Mus musculus with 11 samples.

Results

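The mismatch repair genes *Msh6*, *Msh3*, *Pms2*, *Pms1*, *Mlh3* and *Exo1* were followed in RNA-seq of thymocytes, the T cell precursors found in the thymus. They were chosen by name, and their symbols were matched to the Ensembl identifiers of the deposited count table. All 6 were found among its 54418 genes, and all 6 passed the filter on low counts in every comparison. The mice were 8 to 12 weeks old, on a C57BL/6-WEHI background: 4 were wt, 4 were *Zmat3*-/- and 3 were *Puma*-/-*p21*-/-*Zmat3*-/- (TKO), a genotype reached by serial inter-crosses. ZMAT3 is an RNA binding protein, PUMA a BH3-only initiator of apoptosis and p21 an inhibitor of cyclin-dependent kinases, and all of them are encoded by TRP53 target genes. Loss of *Zmat3* is shared by both mutant genotypes, so TKO and *Zmat3*-/- mice differ by loss of *Puma* (*Bbc3*) and *p21* (*Cdkn1a*). RNA came from a cell suspension of the mashed thymus, and the sources used here describe no sort of the cells, so RNA of other cells in the suspension could be sequenced too.

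Mismatch repair removes the wrong bases and small loops that DNA polymerases leave behind. MSH6 is the part of the recognition complex that finds base mismatches and the smallest loops, and MSH3 is its counterpart in the complex that finds larger loops. PMS2 is the endonuclease subunit that nicks the new strand, MLH3 is a related endonuclease best known from meiotic crossing over, and PMS1 is a further MutL homologue with no known nuclease activity. EXO1 then digests the nicked strand from its 5′ end, and replication proteins refill the gap. Mice without functional mismatch repair are known for T cell lymphomas of the thymus, and thymocytes divide in bursts before they rest.

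Depth ran from 17669715 to 80207003 counts per mouse. Levels are given in CPM, the count relative to library size after TMM scaling for library composition. The targeted *Zmat3* had 10.1 to 27.9 CPM in wt, 5.41 to 6.98 CPM in *Zmat3*-/- and 7.44 to 8.27 CPM in TKO mice, so the labels and its level went the same way, although neither difference from wt passed the test (edgeR adjusted p = 0.0789 and 0.371). *Bbc3* had 17.2 to 20.2 CPM in wt and 11.8 to 16.0 CPM in TKO mice, and *Cdkn1a* 6.68 ± 3.25 and 3.14 ± 0.783 CPM (SD), so RNA was still counted for each deleted gene. Which exons the deletions remove was not used here. All 12 thymocyte markers were above 1 CPM in every mouse. The wt mice fell into pairs: mice 1 and 2 correlated at 0.982 and mice 3 and 4 at 0.981 in log2 CPM across genes, against 0.895 to 0.924 between the pairs, while all *Zmat3*-/- mice correlated at 0.984 or more. The same wt mice 1 and 2, with *Zmat3*-/- mice 1 and 2 and TKO mouse 1, had a high level of *Xist*, the RNA of the inactive X chromosome (514 to 1525 CPM), and the other 6 mice had 0.727 to 2.65 CPM. The labels give no sex, so a high and a low *Xist* level were used to describe the mice, and the log2FCs of the members, the gene lists and the main genes named from them against wt are also given within a level. Summed erythroid markers ran from 883 to 8769 CPM, with both ends of that range among the wt mice. In bulk RNA, fewer cells of a type and less RNA per cell cannot be told apart.

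The sequence before the start of transcription is shown for the most abundant member, *Msh6*, and for *Pms2* and *Pms1*, whose starts lie back to back with another gene. The sequences are RefSeq's on GRCm38.p6, written 5′ to 3′ on the gene's strand, with matches to E2F motifs (TTTCCCGC, TTTGGCGC, TTTCGCGC, TTTGCCGC) and to the NF-Y motif CCAAT, on either strand, in capitals. E2F factors drive genes of the G1/S transition, and NF-Y binds the CCAAT box of many promoters.
Msh6, chr17:87974930-87975049, plus strand: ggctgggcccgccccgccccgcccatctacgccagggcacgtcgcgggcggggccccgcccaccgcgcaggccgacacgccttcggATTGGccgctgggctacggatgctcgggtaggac
Msh6, chr17:87975058-87975080, plus strand: tcccgacTTTCCCGCcagcggcg
Pms2, chr5:143909848-143909963, plus strand: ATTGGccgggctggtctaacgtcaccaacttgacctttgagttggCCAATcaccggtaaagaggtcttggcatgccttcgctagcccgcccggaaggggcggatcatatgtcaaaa
Pms1, chr1:53297029-53297094, minus strand: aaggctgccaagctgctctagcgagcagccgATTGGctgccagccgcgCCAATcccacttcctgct
*Msh3* had 2 overlapping E2F matches, on opposite strands, and no CCAAT, and *Msh6* had 1 E2F match just inside the transcript and 1 CCAAT. The printed stretch between *Pms2* and *Aimp2* and that between *Pms1* and *Ormdl1* held 2 CCAAT matches each and no E2F match. The *Pms2* stretch ends at the start in the GENCODE annotation, short of the RefSeq start. The RefSeq window of *Pms2* held 3 CCAAT matches before its start, the last of them just past the printed end. Of 32851 RefSeq windows of 300 bases around a start, 2.26% held an E2F match, 37.4% a CCAAT and 0.0731% a pair of p53 half-sites. No p53 pair was found in the windows of the 5 members that had an entry. Such matches are letters in a window and no evidence of binding.

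The members span a wide range of levels. Per kilobase of the principal transcript, the mean over all 11 mice was 58.1 ± 5.93 CPM per kb (SD, n = 11) for *Msh6*, 13.1 ± 1.83 for *Msh3*, 6.24 ± 0.552 for *Pms2*, 5.48 ± 0.726 for *Pms1*, 4.58 ± 0.865 for *Mlh3* and 2.53 ± 0.419 for *Exo1*. Each gene stood above the next in 11 of 11 mice. The length used matters below *Msh6*: per kilobase of all merged exons *Msh6* stayed at 56.9, but *Msh3* (4.58) and *Pms2* (4.22) kept their order in 9 of 11 mice, and *Exo1* (2.34) was above *Pms1* (2.22) in only 5 of 11. *Msh6* was thus the most abundant member on either length, but *Pms1* stood above *Mlh3* in 11 of 11 mice on the principal transcript and below it in 11 of 11 on merged exons (3.31 for *Mlh3*), so the order of *Pms1*, *Mlh3* and *Exo1* depends on which exons are counted. The members varied little between mice. The SD of log2 CPM over the 11 mice was 0.132 for *Pms2*, 0.144 for *Msh6* and 0.278 for the most variable member, *Mlh3*, against a median of 0.306 over all tested genes.

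*Msh6* (ENSMUSG00000005370, chr17:87975062-87990892, plus strand, 10 exons in the principal transcript) had 218, 214, 229 and 237 CPM in wt mice 1 to 4, 245, 257, 263 and 259 CPM in *Zmat3*-/- mice 1 to 4, and 229.6, 299.7 and 268 CPM in TKO mice 1 to 3. Every *Zmat3*-/- mouse was above every wt mouse, while TKO mouse 1 lay inside the wt range. Such separation upward was found for 7.00% of all tested genes in this comparison (1 of 6 members), and separation downward for 7.22% (0 members). In TKO against wt mice the shares were 6.43% and 7.48%, and in TKO against *Zmat3*-/- mice 2.96% and 2.68%, with 0 members in each. The log2FC of *Zmat3*-/- against wt was 0.20 (SE 0.0885), which did not pass the test (edgeR adjusted p = 0.321, DESeq2 adjusted p = 0.0502, 95% interval of the fold 0.997 to 1.32). That of TKO against wt was 0.24 (SE 0.138, edgeR adjusted p = 0.575). *Msh6* lies on the same chromosome as *Cdkn1a*, which encodes p21, 58.9 Mb away.

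*Msh3* (ENSMUSG00000014850, chr13:92211872-92355003, minus strand, 24 exons) had 40.0, 37.1, 56.8 and 52.2 CPM in wt mice 1 to 4. It had 53.8, 57.3, 53.8 and 57.8 CPM in *Zmat3*-/- mice 1 to 4 and 54.2, 46.6 and 57.4 CPM in TKO mice 1 to 3. The low values belonged to wt mice 1 and 2, and wt mice 3 and 4 lay within the range of the mutants. The mean over 4 wt mice was 46.5 CPM with an SD of 9.49, that over 4 *Zmat3*-/- mice 55.7 CPM with an SD of 2.15, and the log2FC was 0.27 (SE 0.147, edgeR adjusted p = 0.409). TKO mice, with a mean of 52.7 and an SD of 5.58 CPM, differed from wt by a log2FC of 0.18 (SE 0.182, edgeR adjusted p = 0.707).

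**Figure D1:**
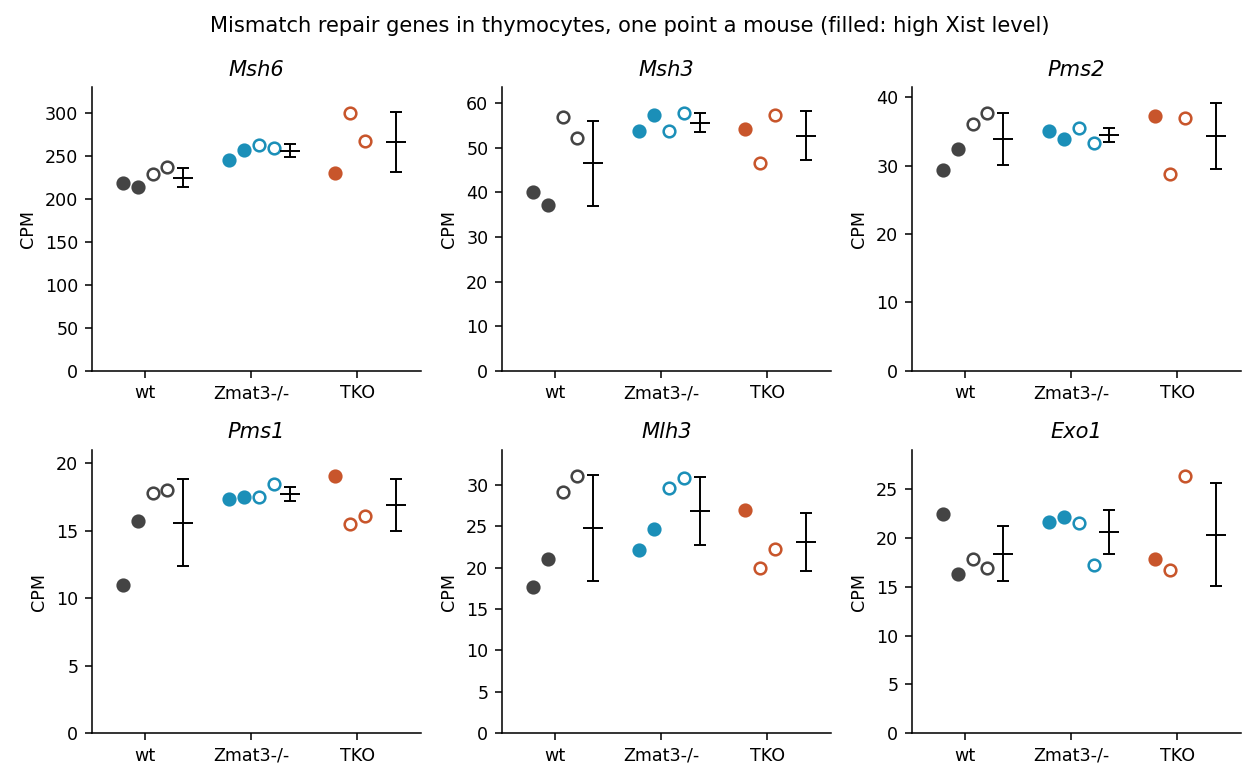
CPM of each mismatch repair gene on the vertical axis, 1 point for each mouse by genotype, filled where the *Xist* level was high, with the group mean and SD beside the points. *Zmat3*-/- mice lie above wt mice for *Msh6* without overlap (245 to 263 against 214 to 237 CPM), and the low wt values of *Msh3*, *Pms2*, *Pms1* and *Mlh3* are those of wt mice 1 and 2.

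Among the MutL homologues, *Pms2* (ENSMUSG00000079109, chr5:143909964-143933968, plus strand, 15 exons) was the most even. It had 29.4, 32.4, 36.1 and 37.7 CPM in wt, 35.1, 33.9, 35.5 and 33.3 CPM in *Zmat3*-/- and 37.3, 28.8 and 37.0 CPM in TKO mice. The 3 genotypes overlapped and their means lay between 33.9 and 34.5 CPM. The 95% interval of its fold ran from 0.869 to 1.21 in *Zmat3*-/- against wt mice, the narrowest of the members but *Msh6* in that comparison.

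*Pms1* (ENSMUSG00000026098, chr1:53189187-53297018, minus strand, 13 exons) had 11, 15.7, 17.8 and 18.0 CPM in wt, 17.4, 17.5, 17.5 and 18.5 CPM in *Zmat3*-/- and 19.1, 15.5 and 16.1 CPM in TKO mice. Only wt mouse 1 lay outside the range of the other 10, at 15.5 to 19.1 CPM. *Mlh3* (ENSMUSG00000021245, chr12:85234520-85270599, minus strand, 12 exons) had 17.7, 21, 29.1 and 31.1 CPM in wt, 22.1, 24.7, 29.6 and 30.8 CPM in *Zmat3*-/- and 26.9, 20 and 22.3 CPM in TKO mice. In wt and *Zmat3*-/- mice alike, *Mlh3* was lower in the mice with a high *Xist* level (17.7 to 24.7 CPM) than in those with a low level (29.1 to 31.1 CPM), but the TKO mouse with a high level had the highest of the 3 TKO values. Its log2FC of -0.22 in TKO against *Zmat3*-/- mice was the largest of any member in that comparison and did not pass the test (SE 0.141, edgeR adjusted p = 0.982).

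*Exo1* (ENSMUSG00000039748, chr1:175880581-175913489, plus strand, 15 exons) had 22.5, 16.3, 17.9 and 16.9 CPM in wt, 21.6, 22.2, 21.5 and 17.2 CPM in *Zmat3*-/- and 17.9, 16.7 and 26.4 CPM in TKO mice. The extremes, wt mouse 2 and TKO mouse 3, were in different genotypes and the groups overlapped. *Exo1* moved with the summed level of 12 mitosis genes such as *Mki67*, *Top2a* and *Plk1*. Over the 11 mice, Pearson's r of log2 CPM was 0.832, and 0.686 over 9 mice without the 2 farthest from the median. The points share their libraries and depth, so this is a description only. TKO mouse 3 had both the highest *Exo1* and the highest mitosis sum (3098 CPM), and wt mouse 2 the lowest of both (1757 CPM). With the sum of 21 S-phase genes r was 0.748 for *Exo1* (0.683 over 9 mice), -0.338 for *Msh3* (-0.084 over 9 mice) and -0.252 for *Msh6* (-0.129 over 9 mice). It was -0.769 for *Pms1* (-0.254 over 9 mice), -0.695 for *Mlh3* (-0.438 over 9 mice) and -0.311 for *Pms2* (-0.0508 over 9 mice).

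Thymocytes without ZMAT3, alone or together with PUMA and p21, were compared with wt thymocytes and with each other. No member was called at an adjusted p under 0.05 in any comparison (0 of 6 in each). All genes tested gave a background of 0.764% called in *Zmat3*-/- against wt mice (103 of 13480), 0.294% in TKO against wt mice (39 of 13275) and 0.221% in TKO against *Zmat3*-/- mice (29 of 13132). With an absolute log2FC above 1.5 as well, the shares were 0.319%, 0.241% and 0.122%, again with 0 members. No member had an unadjusted edgeR p under 0.05, and DESeq2 called 0 members too (8.03%, 2.88% and 0.548% of all genes), although 1, *Msh6* in *Zmat3*-/- against wt mice, had an unadjusted DESeq2 p under 0.05. The members lay above 0 in 6 of 6 cases in *Zmat3*-/- against wt mice, with a median log2FC of 0.18 beside -0.03 for all tested genes, and in 5 of 6 in TKO against wt mice, with medians of 0.13 and -0.04. These comparisons share the wt mice. Within the high and the low *Xist* level, the members' median against wt was 0.26 (6 of 6 above 0) and 0.03 (5 of 6) in *Zmat3*-/- mice. In TKO mice it was 0.37, from 1 TKO mouse, and -0.11. With 1 surrogate variable 17.1%, 0.151% and 0.221% of all genes were called, and 1, 0 and 0 members, the 1 being *Msh3* (edgeR adjusted p = 0.0406). Directly compared, TKO and *Zmat3*-/- mice differed by a median of -0.05 over the members and -0.01 over all tested genes.

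How large a difference could have been missed is shown by the intervals. The widest on the log2 scale reached from 0.649 to 1.35 times wt for *Mlh3* in TKO mice, and no member's 95% interval in any comparison reached beyond 1.54 times or below 0.649 times. A change past a log2FC of 1.5 thus lies outside the interval of every member in these thymocytes. Smaller ones, such as that of *Msh6* in *Zmat3*-/- mice, could not be told from the spread between mice.

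**Figure D2:**
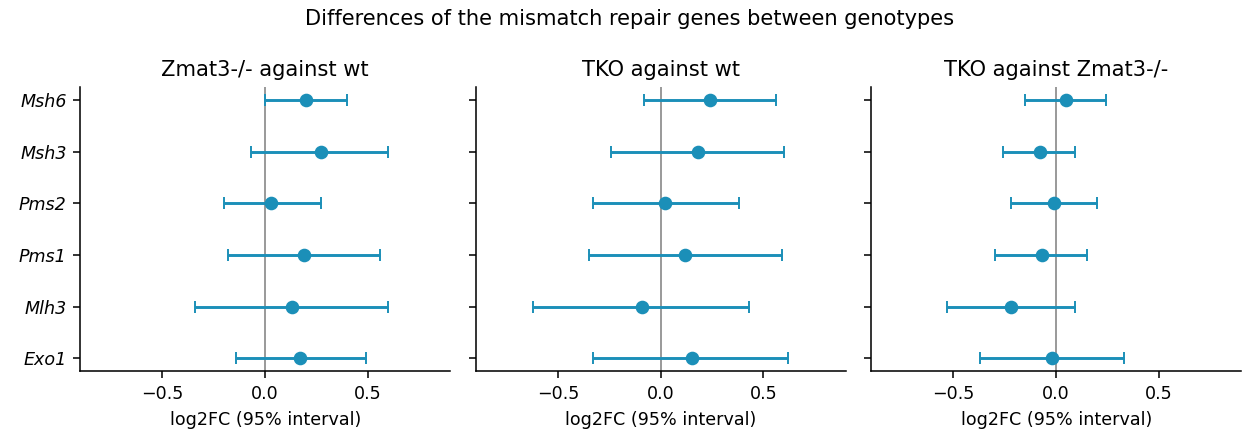
The log2FC of each member on the horizontal axis with its 95% interval (bars) in *Zmat3*-/- against wt, TKO against wt and TKO against *Zmat3*-/- mice. Every interval includes 0, and the lower end for *Msh6* in *Zmat3*-/- against wt mice touches it (0.997 as a fold).

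Within mice of the same *Xist* level, a choice made after the data were seen, the picture for *Msh3* divided. *Msh3* was at 38.5 CPM in the wt mice with a high level (n = 2) against 55.6 CPM in such *Zmat3*-/- mice (n = 2), and at 54.5 against 55.8 CPM in the mice with a low level (n = 2 each). The log2FC was 0.54 (SE 0.1, edgeR adjusted p = 0.00677) at the high level and 0.04 (SE 0.0809, edgeR adjusted p = 0.756) at the low level. The difference between them, tested as an interaction, was 0.50 (SE 0.125, edgeR adjusted p = 0.00993). This call was not peculiar to *Msh3*, since 44.2% of all tested genes passed the same interaction test, and 42.1% were called in the comparison at the high level. In the interaction, 1 of 6 members was called. *Msh6* was at 216 against 251 CPM at the high level and at 233 against 261 CPM at the low level, so it was higher in *Zmat3*-/- mice at each. It was called at the low level (log2FC 0.17, SE 0.0468, edgeR adjusted p = 0.0249), where 28.2% of all genes were called, and not at the high level (log2FC 0.23, SE 0.092, edgeR adjusted p = 0.0835). Its interaction was 0.06 (SE 0.093, edgeR adjusted p = 0.66). The other members were not called at either level. *Pms1* was at 0.40 (SE 0.189) and 0.01 (SE 0.102) at the high and the low level, *Pms2* at 0.17 (SE 0.108) and -0.09 (SE 0.0831), *Mlh3* at 0.28 (SE 0.14) and 0.01 (SE 0.0842), and *Exo1* at 0.19 (SE 0.167) and 0.16 (SE 0.125). With 2 mice a group these p-values rest on very little spread. What separates the wt mice beside *Xist* was not tested.

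TKO mice against wt mice at the low level gave no called member, where 3.02% of all genes were called. There was a single TKO mouse with a high level, so only its log2FCs are given and no call is read from it. *Mlh3* had log2FCs of opposite sign at the high level (0.47) and at the low level (-0.50, SE 0.115, edgeR adjusted p = 0.0773). At the high level 5 of 6 members lay above 0, and at the low level only *Msh6* (0.28) and *Exo1* (0.32) did. In TKO against *Zmat3*-/- mice 2.54% and 0.107% of all genes were called at the high and the low level, and 0 members.

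**Figure D3:**
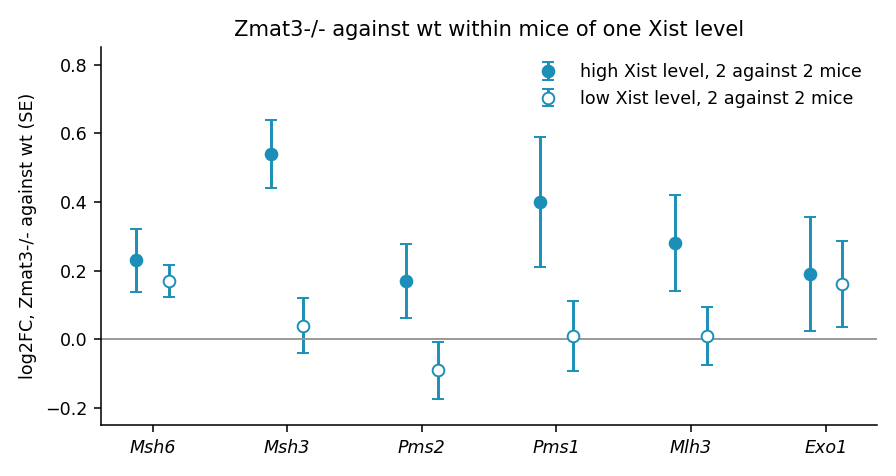
The log2FC of *Zmat3*-/- against wt mice (vertical axis, bars are SE) for each member, within mice with a high *Xist* level (filled) and a low one (open), 2 against 2 mice each. *Msh3* is at 0.54 and 0.04, while *Msh6* is at 0.23 and 0.17.

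Ratios between members that serve in alternative complexes do not depend on library scaling. They were taken within each mouse per kilobase of the principal transcript. On merged exons the mean levels were 56.9 for *Msh6* and 4.58 for *Msh3*, and 4.22 for *Pms2* and 2.22 for *Pms1*. The size of a ratio thus depends on the length used, while its log2 difference between genotypes does not. The *Msh6* to *Msh3* ratio was 5.07, 5.34, 3.74 and 4.22 in wt, 4.22, 4.16, 4.53 and 4.16 in *Zmat3*-/- and 3.93, 5.97 and 4.32 in TKO mice. *Zmat3*-/- mice were the most alike, and lay within the wt range. The log2 difference of *Zmat3*-/- from wt mice was -0.09 (two-sided exact permutation p = 0.4). The *Pms2* to *Pms1* ratio was 1.49, 1.15, 1.13 and 1.17 in wt and 1.12, 1.08, 1.13 and 1.00 in *Zmat3*-/- mice, and 1.09, 1.04 and 1.27 in TKO mice. Its log2 difference of -0.18 between *Zmat3*-/- and wt mice had a two-sided exact permutation p = 0.0571, and 0.514 after adjustment over the 9 ratio comparisons. The smallest p that 4 against 4 or 3 against 4 mice can give is 0.0286.

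The *Pms2* to *Mlh3* ratio was 1.66, 1.54, 1.24 and 1.21 in wt, 1.59, 1.37, 1.19 and 1.08 in *Zmat3*-/- and 1.38, 1.43 and 1.65 in TKO mice. In wt and *Zmat3*-/- mice it was higher in the mice with a high *Xist* level, and in TKO mice it was lowest in the mouse with that level. None of the 9 ratio comparisons passed the test after adjustment (exact permutation, adjusted p of 0.514 to 0.857), but a ratio that moved alone could not have passed, since the smallest exact permutation p of 0.0286 becomes 0.257 over 9 tests.

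**Figure D4:**
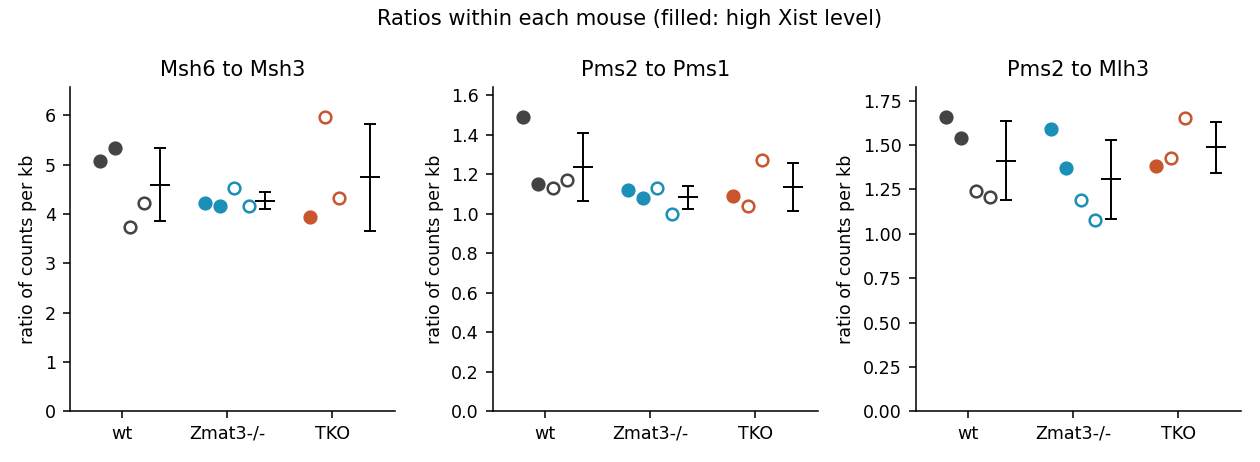
Ratios of counts per kilobase of the principal transcript (vertical axis) within each mouse by genotype, filled where the *Xist* level was high, with the mean and SD beside the points. On that length *Msh6* exceeds *Msh3* by 3.74 to 5.97 times in every mouse, and the genotypes overlap for all 3 ratios.

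Genes that start back to back with a member did not simply follow it. *Aimp2*, a scaffold of the tRNA synthetase complex, starts 117 bases from *Pms2* on the opposite strand. It had 24.7, 19.1, 9.73 and 9.07 CPM in wt mice 1 to 4, where *Pms2* had 29.4, 32.4, 36.1 and 37.7 CPM. *Aimp2* was thus highest in the wt mice with the lowest *Pms2*. It ran from 10.2 to 13.8 CPM in *Zmat3*-/- and from 11.6 to 12.3 CPM in TKO mice, inside the wt range. Its log2FC was -0.39 (SE 0.317) in *Zmat3*-/- and -0.40 (SE 0.361) in TKO against wt mice, and neither passed the test (edgeR adjusted p = 0.571 and 0.684). At the high *Xist* level it was at -0.79 in *Zmat3*-/- mice and called (edgeR adjusted p = 0.012, with 42.1% of all tested genes called), and at -0.91 in the single TKO mouse. At the low level it was at 0.26 and 0.34 and not called (edgeR adjusted p = 0.238 and 0.249). *Gm28778*, 93 bases from *Pms1*, had at most 1.15 CPM. *Ormdl1*, a regulator of sphingolipid synthesis 77 bases from *Pms1*, ran from 34.3 to 48.9 CPM over all mice, and its log2FC was 0.07 (SE 0.114) in *Zmat3*-/- against wt mice (edgeR adjusted p = 0.771), with -0.10 and 0.26 at the high and the low *Xist* level. Of 78 genes within 200 kb of a member, 30, 30 and 28 were tested in the 3 comparisons, and edgeR called 0 in each (4, 1 and 2 had an unadjusted p under 0.05, and DESeq2 called 1, 0 and 0, the 1 being *Zc2hc1c* near *Mlh3*).

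**Figure D5:**
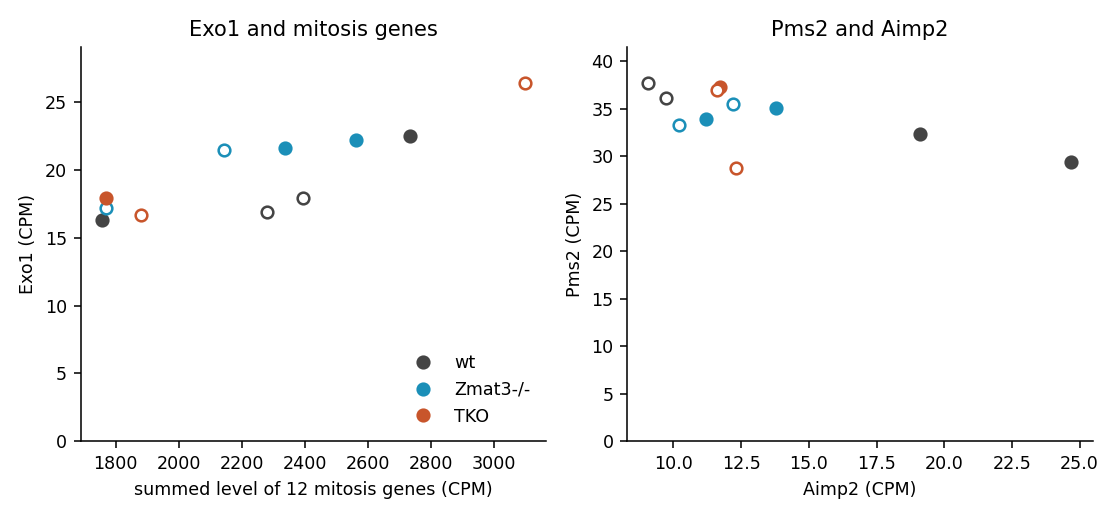
Left, *Exo1* against the summed level of 12 mitosis genes, and right, *Pms2* against its neighbour *Aimp2*, in CPM with 1 point for each mouse, coloured by genotype and filled where the *Xist* level was high. *Exo1* is highest (26.4 CPM) in the mouse with the highest mitosis sum, while the wt mouse with the highest *Aimp2* (24.7 CPM) has a *Pms2* level of 29.4 CPM, the lowest of the wt mice.

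The genes that excise and refill the strand after EXO1 were not called either. Of 14 (*Pcna*, the sliding clamp, the *Rfc* clamp loaders, the *Rpa* single-strand binding subunits, the *Pold* subunits and *Lig1*), edgeR called 0 in each comparison, with 0, 0 and 2 at an unadjusted p under 0.05, and DESeq2 called 0. In *Zmat3*-/- against wt mice 13 of 14 lay below 0 with a median log2FC of -0.10, in TKO against wt mice 13 of 14 with a median of -0.27, and in TKO against *Zmat3*-/- mice 13 of 14 with a median of -0.10. The medians of all tested genes were -0.03, -0.04 and -0.01. The direction against wt was also found at the high *Xist* level, and not at the low one. The mice with a high level are wt mice 1 and 2 (summed level 2008 and 1521 CPM), *Zmat3*-/- mice 1 and 2 (1426 and 1443 CPM) and TKO mouse 1 (1223.5 CPM). Whether these wt mice differ by the level or by something else was not tested. At the high level 12 of 14 lay below 0 in *Zmat3*-/- mice (median -0.34, 5 called lower) and 13 of 14 in the TKO mouse (median -0.62). At the low level 10 of 14 lay above 0 in *Zmat3*-/- mice (median 0.11, 3 called higher) and 11 of 14 in TKO mice (median 0.17, 0 called). Of all tested genes, 42.1% and 28.2% were called in *Zmat3*-/- mice at the high and the low level and 3.02% in TKO mice at the low level. The difference between the levels in *Zmat3*-/- against wt mice was called for 7 of the 14 (44.2% of all tested genes). The summed level was 1100 and 1140 CPM in the wt mice with a low *Xist* level and 1169 to 1356 CPM in the mutants with that level. *Rpa2* had the largest difference from wt, with a mean of 47.9 CPM (SD 4.86) over the TKO and of 71.6 CPM (SD 38.5) over the wt mice (log2FC -0.58, SE 0.381, edgeR adjusted p = 0.61), and *Rfc2* followed at -0.50 (SE 0.221, edgeR adjusted p = 0.492). In *Zmat3*-/- against wt mice they were at -0.48 and -0.35. At the low level *Rpa2* was at 0.10 in *Zmat3*-/- and 0.19 in TKO mice, and at the high level at -0.82 and -1.11. *Rfc2* was at -0.07 and -0.16 at the low level and at -0.56 and -0.74 at the high level. In TKO against *Zmat3*-/- mice *Rpa3* and *Rfc4*, at -0.30 and -0.26, were the 2 with an unadjusted p under 0.05. The summed level of the 14 was 1100 to 2008 CPM in wt, 1203 to 1443 CPM in *Zmat3*-/- and 1169 to 1356 CPM in TKO mice, and wt mouse 1 held the highest value.

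Of 8 factors linked to mismatch repair, 7 were tested, since *Msh4* was too low, and edgeR called 0 in each comparison (0 at an unadjusted p under 0.05, and 0 by DESeq2). *Setd2*, the methyltransferase whose histone mark recruits MSH6 to chromatin, averaged 161 CPM (SD 54.5) over the wt, 214 CPM (SD 10.2) over the *Zmat3*-/- and 239 CPM (SD 32.6) over the TKO mice. Its log2FC against wt was 0.41 (SE 0.228) in *Zmat3*-/- and 0.57 (SE 0.269) in TKO mice, with edgeR adjusted p = 0.409 and 0.512. *Fan1*, a nuclease that acts beside the MutL proteins, averaged 8.29 CPM (SD 4.38) over the wt and 12.6 CPM (SD 1.64) over the *Zmat3*-/- mice (log2FC 0.61, SE 0.393, edgeR adjusted p = 0.474). Its log2FC in TKO against wt mice was 0.38. *Msh5* and *Fan1* were furthest from 0 in TKO against *Zmat3*-/- mice, at -0.23 and -0.22. Over the 7 genes the medians were -0.02, -0.08 and -0.02, with 3, 2 and 3 above 0. Within levels, *Setd2* was at 0.88 (high) and 0.08 (low) in *Zmat3*-/- and at 0.91 and 0.27 in TKO mice, and *Fan1* at 1.27 and 0.22, and at 1.49 and -0.31. The values of TKO mice at the high level are those of 1 mouse. In *Zmat3*-/- mice both genes were called at the high level (edgeR adjusted p = 0.00174 and 0.0218) and not at the low level (edgeR adjusted p = 0.278 and 0.211). The log2FC of *Setd2* differed between the levels by 0.79 (SE 0.108, edgeR adjusted p = 0.000559), and that of *Fan1* by 1.03 without passing the test (SE 0.388, edgeR adjusted p = 0.0541). The medians of the 7 were 0.42 and -0.03 in *Zmat3*-/- and 0.34 and -0.30 in TKO mice. Of the 7, 4 were called higher in *Zmat3*-/- mice at the high level and 2 lower at the low level, where 42.1% and 28.2% of all tested genes were called, and the difference between the levels was called for 4 (44.2% of all tested genes).

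The 21 S-phase genes gave 0 called in each comparison (1, 0 and 0 at an unadjusted edgeR p under 0.05, 0 by DESeq2), with medians of -0.14, -0.16 and -0.05 and 8, 5 and 0 of 21 above 0. *Ccne1*, the cyclin of S-phase entry, and *Tk1*, thymidine kinase, had the largest differences from wt, at -0.45 and -0.36 in *Zmat3*-/- and -0.47 and -0.48 in TKO mice, and *Gins1* and *Cdc45*, of the replicative helicase, those between TKO and *Zmat3*-/- mice, at -0.24 and -0.14. *Mcm2*, a subunit of the replicative helicase, had the smallest adjusted p among them (log2FC 0.26, SE 0.106, edgeR adjusted p = 0.284, *Zmat3*-/- against wt mice). The 12 mitosis genes also gave 0 (0 at an unadjusted edgeR p under 0.05, 0 by DESeq2), with medians of -0.17, -0.25 and -0.08, and *Birc5*, the survivin gene, was at -0.69 (SE 0.348, edgeR adjusted p = 0.37) in *Zmat3*-/- and -0.82 (SE 0.387, edgeR adjusted p = 0.511) in TKO against wt mice. *Aurka* was next, at -0.35 and -0.44, the latter equal to *Cdk1*, and *Cdk1* and *Mki67* were at -0.15 and 0.14 in TKO against *Zmat3*-/- mice.

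The S-phase and mitosis genes were also compared with wt within each *Xist* level. Of the 21 S-phase genes, 5 and 12 lay above 0 in *Zmat3*-/- mice at the high and the low level (medians -0.26 and 0.02), and 0 and 17 in TKO mice (medians -0.59 and 0.18). Of them, 2 were called lower in *Zmat3*-/- mice at the high level (42.1% of all tested genes called) and 2 higher and 1 lower at the low level (28.2%), and the difference between the levels was called for 3 (44.2%). In TKO mice 0 were called at the low level (3.02%). Of the 12 mitosis genes, 6 and 0 lay above 0 in *Zmat3*-/- mice (medians -0.05 and -0.19) and 2 and 10 in TKO mice (medians -0.67 and 0.09). Among them, 2 were called higher and 1 lower in *Zmat3*-/- mice at the high level (42.1% of all tested genes called) and 3 lower at the low level (28.2%), and the difference between the levels was called for 2 (44.2%). In TKO mice 0 were called at the low level (3.02%). The values of TKO mice at the high level are those of 1 mouse, from which no call is read, and the difference between the levels was not tested in TKO mice. *Birc5* was at -0.88 and -0.35 in *Zmat3*-/- and at -1.51 and -0.06 in TKO mice at the high and the low level, and *Aurka* at -0.48 and -0.13, and at -1.13 and 0.21. *Tk1* was at -0.44 and -0.25, and at -0.91 and -0.08, and *Ccne1* at -0.59 and -0.25, and at -0.87 and -0.07.

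Among the markers of thymocytes, stroma, myeloid, B and erythroid cells edgeR called 0 genes in each comparison (2, 4, 1, 0 and 0 of them had an unadjusted p under 0.05 in *Zmat3*-/- against wt mice). DESeq2 called 3 thymocyte markers, 3 stroma markers and 1 myeloid marker there (8.03% of all tested genes) and 0 elsewhere. Of the 12 thymocyte markers, 9 lay below 0 and 3 above in that comparison, with a median log2FC of -0.25 beside -0.03 for all tested genes. In 3 of them every *Zmat3*-/- mouse was below every wt mouse (7.22% of all tested genes), and in 0 above. The summed levels of other cells overlapped between genotypes, at 204 to 362, 258 to 285 and 202 to 275 CPM for 13 stroma markers and 163 to 270, 199.6 to 275 and 123 to 311.5 CPM for 12 myeloid markers in wt, *Zmat3*-/- and TKO mice. B cell markers summed to 54.5 to 133 CPM over all mice. Of the other cells' markers, 9 of 13 stroma, 7 of 12 myeloid, 7 of 8 B cell and 5 of 7 erythroid genes were above 1 CPM in all mice, and *Mpo* and *Klf1* were under 1 CPM in all. Their part in the members' values was not tested.

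The members did not form a common profile over the 11 mice. As a description, with libraries shared by all genes, Pearson's r of log2 CPM was 0.652 to 0.800 between any of *Msh3*, *Pms1*, *Pms2* and *Mlh3*, but -0.156 to 0.444 between *Msh6* and any other member and -0.305 to 0.261 between *Exo1* and any other member. The low values of wt mice 1 and 2 are common to the first 4 genes. Among 11933 tested protein-coding genes, the 3 most like each member were *Kcnq5* (r = 0.970), *Tmem241* (0.966) and *Utp20* (0.965) for *Msh3*, *Zbtb44* (0.948), *Camkk1* (0.934) and *1190002N15Rik* (0.933) for *Msh6*, and, of those given here, *Map3k20* (0.933) and *Kctd18* (0.920) for *Pms2*. Those of *Pms1* were *Aldh3a2* (0.984), *Tbc1d14* (0.957) and *Gm49510* (0.950), those of *Mlh3* were *Il1rl2* (0.972), *Abcg3* (0.958) and *Dhx57* (0.956), and those of *Exo1* were *Cdc25b* (0.944), the phosphatase that starts mitosis, *Stom* (0.943) and *Tnfrsf8* (0.921). No other member was among the 3 for any of them.

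Some reads could be assigned to more than 1 gene. Exons of *Msh3*, *Msh6*, *Pms1* and *Pms2* overlap those of other genes (for *Msh6* *Fbxo11*, for *Pms1* *Gm28777* and for *Pms2* *Rsph10b* and *Gm42421*), and the library kit kept no strand. Of the words of 31 bases in the exons of *Msh6*, 10.7% also occur in other genes, mostly in *Gm11855*, which was listed at 0 in 10 of 11 mice. The shares were 7.63% for *Pms1*, mostly with *Wdr12* (132, 129 and 135 CPM on average in wt, *Zmat3*-/- and TKO mice), 4.93% for *Pms2*, 2.40% for *Msh3*, 1.92% for *Exo1* and 0.756% for *Mlh3*. How such reads were divided was not tested.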

How the data were processed

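RNA-seq libraries of thymocytes from 4 wt, 4 *Zmat3*-/- and 3 TKO mice were analysed. The authors quantified reads by Salmon, run through nf-core/rnaseq (GRCm38.p6, GENCODE vM25), and deposited the estimated counts per gene, in whole numbers and without normalization. Names and positions came from GENCODE M21, which matched 54166 of 54418 genes. Samples were grouped by the genotype in their labels. The labels do not say whether the mice were littermates, and p-values measure the spread between these mice.

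Genotypes were compared pairwise with the quasi-likelihood test of edgeR 4.0.16 (R 4.3.3) on the counts, with TMM scaling and Benjamini-Hochberg adjustment over all tested genes, two-sided. A gene was tested if it reached 20 counts (at the depth of the smallest library) in a number of mice equal to the smaller group. *Xist*, chromosome Y, ribosomal RNA and immunoglobulin pseudogenes were left out. Genes were called at an adjusted p under 0.05. Log2 CPM used a prior count of 2. The study used DESeq2 1.40.0 with sex and surrogate variables. Here DESeq2 1.42.0, 1 surrogate variable from sva 3.50.0, the *Xist* level, RLE size factors, no filter, a fit of all 3 genotypes, a replicate block and each mouse left out were alternatives. On simulated counts for *Zmat3*-/- against wt mice (13357 genes), edgeR recovered 96% of the genes changed by a log2 of 1. The simulated mice had a fixed spread for all genes and held no pairs such as those of the wt mice. That share thus does not carry over to the real mice. In them the targeted *Zmat3* was not called in this comparison, at a log2FC of -1.64 (SE 0.35, edgeR adjusted p = 0.0789).

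Depth was 17669715 to 80207003 counts per mouse. The members and lists were chosen with earlier results of these data known. The text names all members, the genes starting within 1000 bases on the opposite strand, the called genes of each list or else the 2 with the largest absolute log2FC, and the 3 genes most like each member. Fits within *Xist* levels (gene lists included), the interaction, merged exon lengths and the naming of *Gm11855*, *Wdr12*, *Zc2hc1c* and *Mcm2* were chosen after the data were seen. Ratios were tested by exact permutation of their log2 values, two-sided. Per-length levels used the principal transcript. Protein sequences were not used here, and 1 neighbour and 1 gene most like a member are not reported here.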

Additional observations from a re-analysis of the deposited data

Results flagged for a closer look

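Among 18 sets of 4 mice tested for a value far from the others (6 genes and 3 ratios in wt and in *Zmat3*-/- mice), 3 held one by Dixon's criterion, where chance flags about 1 in 20. The *Pms2* to *Pms1* ratio of wt mouse 1 was 1.49, against 1.13 to 1.17 in the other wt mice. *Pms1* in *Zmat3*-/- mouse 4 was at 18.5 CPM, against 17.4 to 17.5 CPM in the other *Zmat3*-/- mice, a gap that is large only because those mice were so alike. *Exo1* in *Zmat3*-/- mouse 4 was at 17.2 CPM, against 21.5 to 22.2 CPM in the others, and that mouse also had the lowest mitosis sum of its genotype (1771 CPM).

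The difference of *Msh3* between *Zmat3*-/- and wt mice was larger in mice with a high *Xist* level than in those with a low one, by 0.50 on the log2 scale (edgeR adjusted p = 0.00993), and 44.2% of all tested genes passed this interaction test. *Zmat3*-/- mice had 55.6 and 55.8 CPM at the high and the low level, and wt mice 38.5 and 54.5 CPM. The interaction thus rests on wt mice 1 and 2, which also stood apart from the other wt mice across genes.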

How the results depend on the processing

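No member was called under any alternative except 3. *Msh3* in *Zmat3*-/- against wt mice was called with 1 surrogate variable (1 member, log2FC 0.27, edgeR adjusted p = 0.0406, where 17.1% of all genes were called) and within mice of a high *Xist* level, and *Msh6* within mice of a low level (1 member each). Of 294 recomputed member log2FCs, 257 kept their direction and their side of the threshold, 3 passed it and 34 changed sign. *Msh6* in *Zmat3*-/- against wt mice stayed between 0.17 and 0.23 under every alternative, with adjusted p of 0.0249 to 0.592, and at 0.0502 with DESeq2.

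Sign changes were as follows. In *Zmat3*-/- against wt mice, *Pms2* was -0.09 within the low level. In TKO against wt mice, *Mlh3* was 0.05 with the replicate block and 0.47 within the high level, *Pms2* was -0.01 with 1 surrogate variable and -0.16 within the low level, *Exo1* was -0.12 within the high level, and *Msh3* and *Pms1* were -0.06 and -0.18 within the low level. In TKO against *Zmat3*-/- mice, *Pms2* and *Exo1* were 0.01 and 0.00 with no filter, *Pms2* was 0.00 with the *Xist* level as covariate, *Msh6*, *Pms1*, *Pms2* and *Mlh3* were -0.13, 0.13, 0.11 and 0.20 within the high level, and *Exo1* was 0.15 within the low level. Leaving out each mouse, the ranges that crossed 0 were -0.03 to 0.09 for *Pms2* and -0.01 to 0.26 for *Mlh3* in *Zmat3*-/- against wt mice. In TKO against wt mice they were -0.02 to 0.19 for *Pms1*, -0.04 to 0.14 for *Pms2*, -0.23 to 0.03 for *Mlh3*, -0.09 to 0.27 for *Exo1* and -0.14 to 0.16 for the *Msh6* to *Msh3* ratio. In TKO against *Zmat3*-/- mice they were -0.14 to 0.01 for *Msh3*, -0.04 to 0.14 for *Msh6*, -0.07 to 0.11 for *Pms2*, -0.25 to 0.11 for *Exo1*, -0.05 to 0.25 for the *Msh6* to *Msh3* ratio and -0.03 to 0.12 for the *Pms2* to *Pms1* ratio. Without crossing 0, *Msh3* in *Zmat3*-/- against wt mice was 0.17 without wt mouse 2, *Pms1* 0.05 without wt mouse 1, and *Exo1* 0.28 and 0.11 without wt mouse 1 and 2. In TKO against wt mice *Msh3* was 0.09, 0.29 and 0.27 without wt mouse 2, wt mouse 3 and TKO mouse 2, and *Msh6* 0.37 and 0.15 without TKO mouse 1 and 2. In TKO against *Zmat3*-/- mice *Mlh3* was -0.35, -0.12 and -0.14 without TKO mouse 1, TKO mouse 2 and *Zmat3*-/- mouse 4, and *Pms1* -0.18 and -0.01 without TKO mouse 1 and 2. The *Pms2* to *Pms1* ratio in *Zmat3*-/- against wt mice ranged from -0.22 to -0.08, and without wt mouse 3 its two-sided exact permutation p was 0.0286 before adjustment. The *Msh6* to *Msh3* ratio ranged from -0.19 (without wt mouse 3) to -0.01 (without wt mouse 2) in the same comparison.

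Counts over all genes moved widely. In *Zmat3*-/- against wt mice, 103 became 1082 with DESeq2, 55 with no filter, 239 with all 3 genotypes in the fit, 188 with the *Xist* covariate, 2309 with 1 surrogate variable, 6004 and 3881 within the high and the low level, and 17 to 105 leaving out each mouse (without any mouse but wt mouse 1 it moved by over 1.5 times, to 33 to 46 without another wt mouse and 17 to 21 without a *Zmat3*-/- mouse). In TKO against wt mice, 39 became 382, 61 and 216 under the first 3 of these, 20 with 1 surrogate variable, 3089 and 400 within the levels, and 16 to 42 leaving out each mouse (16, 16 and 18 without TKO mouse 1, 2 and 3). In TKO against *Zmat3*-/- mice, 29 became 72, 90 and 16 under the first 3, 377 and 14 within the levels, and 20 to 34 leaving out each mouse. The cause was not tested. The replicate block gave 12, 16 and 21 called genes and 0 members. In wt and *Zmat3*-/- mice the numbers follow the *Xist* level (1 and 2 high, 3 and 4 low), but the labels name nothing that they share and not every pair correlated, so they were not used as pairs. The correlation of their deviations from the group means was 0.0858 to 0.322 for *Zmat3*-/- and wt mice, 0.0698 to 0.385 for TKO and wt mice and -0.00247 to 0.164 for TKO and *Zmat3*-/- mice. With 3 or 4 mice a group, the intervals of the members' folds against wt reached up to 1.54 and down to 0.649.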
